A study of Mus musculus with 28 samples.

Results

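The 58 genes described here are transcription factors that lay out tissues and cell types in the embryo: 12 forkhead genes, 10 T-box genes, 6 Sox genes, 3 Gata genes, 15 basic helix-loop-helix (bHLH) genes, 4 Zic genes, 6 other zinc-finger genes (Wt1, Scrt1, Osr1, Osr2, Sall1 and Sall3) and 2 Dmrt genes. Their H3K27me3, the repressive trimethyl mark on lysine 27 of histone H3, was measured by ChIP-seq in sorted mouse microglia, the resident macrophages of the brain. Members were found by the gene name that the deposited table gives for each H3K27me3 region, at any distance from the gene's transcription start. This gave 133 of the table's 26326 regions, nearest to 48 of the 58 genes. For 36 genes, 39 regions had their centre within 10 kb of the start, and the other 94 regions lay farther away.

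All mice were adult male C57BL/6 wild types, and brains of 2 to 6 mice of 1 condition were pooled for each sort, per the labels. Mice on a regular diet gave the basal microglia, which were sorted as CD44 low, CD45 low and CD11b low. The other 3 groups came from mice fed 0.2% cuprizone, a copper chelator that strips myelin from the brain, for 4 weeks, and were sorted as CD229-CD11c-, CD229+CD11c- and CD229+CD11c+. Diet and sort gate therefore cannot be told apart in a comparison with basal cells. The 3 cuprizone subsets share the diet and differ by gate, but the labels do not say whether they share pools of mice. Each group had 3 libraries with counts (basal replicates 3, 4 and 5; replicates 1, 2 and 3 of each subset), with 7740002 to 11362168 tags in the regions and a median of 151 to 222 tags per region. In each group 2 libraries carry PE150 in their title and 1 does not, and what the tag marks is not stated in the labels. The regions themselves were called by the authors on basal replicates 1 and 2 against input, so mark gained outside them is not analysed here. Values are CPM, a region's count scaled to its library's tags over all regions after TMM adjustment (edgeR's trimmed-mean scaling), so each is a level relative to the other regions. A pool of sorted cells cannot separate more mark per cell from more cells that carry it.

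H3K27me3 is written by the Polycomb repressive complex PRC2 and read by PRC1, and it keeps developmental genes silent in cells that do not use them. In mammals both complexes gather on CpG-rich DNA around start sites, and the mark can spread from there over many kilobases. Master regulators of other lineages are the classic targets: a macrophage has no use for the heart factor Tbx5, the muscle factor Myod1 or the neuronal factor Neurog2, and their genes stay under the mark. Tal1 and Lyl1, bHLH factors of blood cells, and Sall1, a zinc-finger factor that sets microglial identity, are the members that microglia or their relatives are known to express.

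RefSeq promoter windows of GRCm38.p6, the release that corresponds to mm10, were at hand for 36 members (42 windows of 300 bases, 250 before the start and 50 after it). CG dinucleotides were counted because CpG density is the sequence feature tied to Polycomb recruitment. The member windows held a median of 21.5 CG, against 7 in all 32851 windows, and 90.5% of them held 10 or more against 43.5% of all. Windows inside an H3K27me3 region made up 36 of the 42, or 85.7%, against 23.2% of all windows. Over all genes, the windows inside a region held a median of 8 CG and 44.7% of them held 10 or more, close to the values of all windows. The 6 member windows outside any region were those of Tal1, Lyl1 and Sall1, with a median of 20 CG. They ran from 7 CG at Lyl1 to 39 at a start of Sall1. The 250 bases before the start are printed for 4 members under a region and 2 outside any, with CG in capitals, to show how dense these sites are on both sides of that divide.
Sox1, chr8:12395269-12395518, plus strand: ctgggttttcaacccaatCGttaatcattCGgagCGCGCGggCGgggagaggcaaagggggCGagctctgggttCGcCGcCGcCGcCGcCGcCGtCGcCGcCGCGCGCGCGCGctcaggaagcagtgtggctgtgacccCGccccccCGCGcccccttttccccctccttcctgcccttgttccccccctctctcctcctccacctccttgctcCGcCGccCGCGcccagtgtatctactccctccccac
Atoh1, chr6:64728875-64729124, plus strand: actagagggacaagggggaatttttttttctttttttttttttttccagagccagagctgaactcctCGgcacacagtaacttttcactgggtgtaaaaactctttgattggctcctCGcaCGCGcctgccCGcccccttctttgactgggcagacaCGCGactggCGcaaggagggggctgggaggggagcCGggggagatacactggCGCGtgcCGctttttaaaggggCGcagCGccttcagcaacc
Tbx18, chr9:87731261-87731510, minus strand: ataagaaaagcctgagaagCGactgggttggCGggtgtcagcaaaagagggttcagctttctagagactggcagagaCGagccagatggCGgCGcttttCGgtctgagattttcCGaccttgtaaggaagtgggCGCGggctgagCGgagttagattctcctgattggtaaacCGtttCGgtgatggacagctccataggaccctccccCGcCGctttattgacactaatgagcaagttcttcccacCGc
Neurog2, chr3:127632886-127633135, plus strand: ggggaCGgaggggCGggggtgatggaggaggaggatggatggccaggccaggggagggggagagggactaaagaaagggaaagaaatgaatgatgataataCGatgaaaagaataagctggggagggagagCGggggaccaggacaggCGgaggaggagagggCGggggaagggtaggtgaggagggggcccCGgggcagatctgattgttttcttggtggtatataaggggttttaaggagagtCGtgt
Sall1, chr8:89044163-89044412, minus strand: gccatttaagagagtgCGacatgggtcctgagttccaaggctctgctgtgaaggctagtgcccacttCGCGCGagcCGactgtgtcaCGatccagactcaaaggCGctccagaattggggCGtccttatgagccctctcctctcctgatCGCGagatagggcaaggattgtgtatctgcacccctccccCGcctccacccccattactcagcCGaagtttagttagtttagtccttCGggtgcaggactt
Tal1, chr4:115056176-115056425, plus strand: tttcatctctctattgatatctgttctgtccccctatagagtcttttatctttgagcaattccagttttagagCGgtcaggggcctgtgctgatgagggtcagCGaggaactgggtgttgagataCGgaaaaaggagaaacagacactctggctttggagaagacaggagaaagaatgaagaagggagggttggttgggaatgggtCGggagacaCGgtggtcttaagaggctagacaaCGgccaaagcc
These 250 bases held 29 CG in Sox1, 14 in Atoh1, 15 in Tbx18 and 8 in Neurog2. Outside the regions, Sall1 had 13 and the upstream Tal1 start had 6. Not printed here, Twist2 (under a region) had 23 and Lyl1 (outside any) had 5. The Sall1 stretch, with no H3K27me3 region over it, was thus about as rich in CG as those of Atoh1 and Tbx18, which lie inside one. Promoter entries were not at hand for Scrt1, Foxc2, Gata6, Dmrt1, Zic2, Tbx2, Wt1, Sall3, Gata4, Bhlhe22, Tbx5, Tbx15, Foxe1, Foxq1, Tbx3, Foxf1, Myod1, Foxb1, Hand1, Osr2, Osr1 and Sox3.

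In basal microglia the mark covered nearly all of these genes. Set against the RefSeq gene bodies, 54 of the 58 genes lay at least in part under a region and 44 lay wholly inside one. The 4 without a region over them were Tal1, Lyl1, Sall1 and Sall3. The nearest-gene names hide part of this: 10 members had no row under their own name (Sox21, Lyl1, Foxc2, Tbx2, Foxf1, Tal1, Zic1, Sox3, Hand2 and Foxl2), yet 8 of them lay under a region named for a neighbour. Foxc2 lay in the region named for Foxl1, Foxf1 in that of Fendrr, Foxl2 in that of Foxl2os, Sox3 in that of Gm38438, Sox21 in that of LOC105245869 and Hand2 in that of 5033428I22Rik. Tbx2 shared a 104.5 kb region with Tbx4, and Zic1 shared a 62.1 kb region with Zic4. Gata6, which has rows of its own far away, was covered by the region named for 1010001N08Rik.

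The regions over member genes were long and strongly marked. Those 59 had a median length of 31.9 kb and a median basal log2 enrichment over input of 2.21. The 39 regions within 10 kb, of which 4 lay beside the gene, had medians of 25.5 kb and 2.18. Of the 39, 24 were in the top 10% of all regions by that enrichment. Of the 7740 other regions within 10 kb of a start, 16.6% were in that top class, and their median length was 7.37 kb. The longest was the 113.5 kb region over Neurog1, followed by the 109.5 kb region over Gata4. The highest enrichment was at Scrt1, with a log2 of 3.10. Per kilobase, which allows genes to be compared, the basal level ran from 2.47 CPM per kb over Twist2 to 6.87 over Scrt1 and 8.41 over Zic2 among the regions given in full here.

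Because the regions were called on basal libraries, the genes left free of the mark describe basal microglia and do not check the cuprizone sorts. None of 12 microglial marker genes, among them Cx3cr1, P2ry12, Tmem119 and Csf1r, lay under a region. All 7 neuronal markers did, as did 4 of 6 oligodendrocyte, 5 of 6 astrocyte, 5 of 6 lymphocyte and 4 of 5 endothelial markers. Among the covered ones, the regions of 3 neuronal, 3 oligodendrocyte, 3 astrocyte, 3 lymphocyte and 3 endothelial markers rose in CD229+CD11c- cells against basal cells, and 1 astrocyte marker's fell. In that comparison 9.52% of all regions rose. Apart from regions of members, 45.6% of those that hold a whole protein-coding gene rose, and 55.5% of those within 10 kb in the top 10% of basal enrichment. A share of other cells in the sorts was not tested.

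In CD229+CD11c- cells the mark over these genes was higher than in basal cells in every family. Of the 39 regions within 10 kb, 34 rose and 0 fell at an adjusted p under 0.05 (edgeR quasi-likelihood test, Benjamini-Hochberg over all regions), with a median log2 fold change of 0.62, or 1.53-fold. In the same comparison 9.52% of all regions and 22.4% of the other regions within 10 kb rose, and the median of the latter was 0.08. In 35 of the 39 the 3 CD229+CD11c- libraries all lay above the 3 basal libraries, against 31.2% of the other regions within 10 kb. Counted by gene body, 53 of the 54 covered genes had a region over them that rose, Neurog3 being the exception. Part of the gap to other regions goes with the height of the mark: among the 1284 other regions within 10 kb in the top 10% of basal enrichment, 55.5% rose, with a median of 0.41, and among the 1225 other regions that hold a whole protein-coding gene 45.6% rose.

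**Figure D1:**
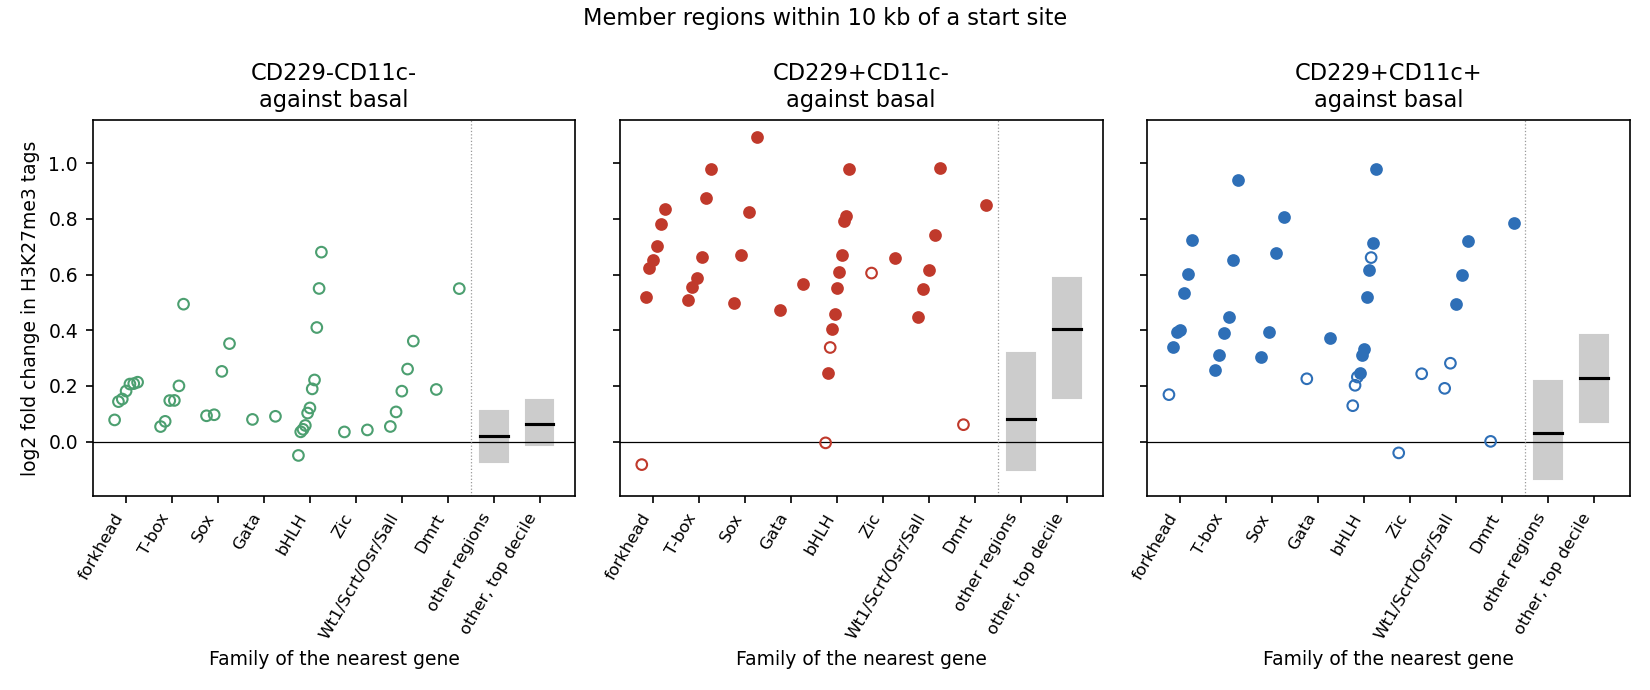
Log2 fold change of H3K27me3 tags in each cuprizone subset against basal microglia, 1 point per member region within 10 kb of a start site, by family; filled points passed an adjusted p under 0.05 and open points did not. Grey boxes give the range between the outer quartiles and black lines the median of the 7740 other regions within 10 kb and of the 1284 of them in the top 10% of basal enrichment. In CD229+CD11c- cells 34 of 39 points are filled, in CD229+CD11c+ cells 28, and in CD229-CD11c- cells 0.

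The Sox genes gave the strongest single rise. Sox1, a factor of early neural tissue, lies in a 31.4 kb region (chr8:12378872-12410234, mm10) whose centre is at the promoter. It held 118, 116 and 126 CPM in the basal libraries, 184, 153 and 123 in CD229-CD11c-, 272, 261 and 237 in CD229+CD11c- and 226, 224 and 181 in CD229+CD11c+. The CD229+CD11c- libraries stood above all others, and the CD229-CD11c- libraries reached down to the basal ones. The log2 fold change against basal was 1.09 ± 0.11 (SE; 2.14-fold, edgeR adjusted p = 2.31e-06) in CD229+CD11c- cells and 0.81 ± 0.11 (adjusted p = 0.000327) in CD229+CD11c+ cells. All 4 Sox regions within 10 kb rose in both subsets. Sox14, over a 31.4 kb region, rose by 0.82 and 0.68, from 102, 95.4 and 108 CPM in basal libraries to 194, 184 and 162 in CD229+CD11c- and 179, 165 and 144 in CD229+CD11c+. The CD229-CD11c- libraries of Sox14, at 133, 126 and 105 CPM, stayed under both CD229+ subsets and touched the basal range. Sox2, the pluripotency and neural stem cell factor, rose by 0.50 and 0.30. Its 41.0 kb region held 287, 225 and 235 CPM in basal libraries, 352, 345 and 359 in CD229+CD11c- and 314, 303 and 306 in CD229+CD11c+, with no overlap of any of the 3. Sox11, a factor of maturing neurons, rose by 0.67 and 0.39. Sox21 and Sox3, under regions named for neighbours, rose by 0.23 and 0.64 in CD229+CD11c- cells.

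The T-box genes, which specify mesoderm, heart and limbs, rose in all regions within 10 kb of a start by the deposited distance. These were 6 of 6 in CD229+CD11c- cells, with a median log2 fold change of 0.63, and 6 of 6 in CD229+CD11c+ cells, with a median of 0.42. Tbx5, the forelimb and heart factor, had the largest change (chr5:119827478-119847858, 20.4 kb, over intron 2). Its libraries held 72.0, 64.6 and 69.2 CPM in basal cells, 113, 103 and 73.8 in CD229-CD11c-, 143, 141 and 122 in CD229+CD11c- and 143, 145 and 107 in CD229+CD11c+. Both CD229+ subsets lay above every basal library and overlapped each other, with log2 fold changes of 0.98 ± 0.13 and 0.94 ± 0.13. Tbx18 rose by 0.88 ± 0.11 in CD229+CD11c- cells, from 83.1, 68.4 and 80.7 CPM to 143, 148 and 136 CPM, and CD229+CD11c+ libraries lay between at 127, 129 and 109. Tbx15, whose region had the highest basal enrichment of the family, rose by 0.59 ± 0.07, from 337, 279 and 281 CPM to 439, 451 and 459.6, with 371.5, 376 and 366.5 in CD229+CD11c+. Eomes, a factor of mesoderm and cortical progenitors with the longest T-box region within 10 kb (54.9 kb), rose by 0.51 ± 0.07, from 219, 194 and 196 CPM to 278, 287.5 and 300.2. Its CD229+CD11c+ libraries, at 243, 246 and 237 CPM, also cleared the basal range, and the groups of both genes kept apart. Tbx1 rose by 0.66 and Tbx20 by 0.56. Farther from the start by region centre, but over the gene, Tbx3 (0.52), Tbr1 (0.44), and the region shared by Tbx4 and Tbx2 (0.57) rose as well. The 8 T-box regions beyond 10 kb, further regions over Tbx5 and Tbx15 among them, ran from -0.37 to 0.57 in CD229+CD11c- cells. Of these, 4 rose and 0 fell. Among the 8, a 19.9 kb region (chr5:119791062-119810914) spans the RefSeq start of Tbx5, although the deposited distance places it beyond 10 kb.

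Forkhead genes, pioneer and patterning factors of gut, mesoderm and skeleton, rose in 6 of 7 regions near their starts in both CD229+ subsets. The medians were 0.65 in CD229+CD11c- cells and 0.40 in CD229+CD11c+ cells. The Foxq1 region over the gene (10.1 kb, chr13:31553647-31563789) held 42.8, 41.3 and 45.6 CPM in basal libraries and 80.8, 78.3 and 72.3 in CD229+CD11c- libraries, a log2 fold change of 0.83 ± 0.11 with no overlap. Foxf2, with the highest basal enrichment of the family, rose by 0.78, from 116, 109.9 and 115 CPM to 206, 206 and 173 in CD229+CD11c- and 180, 184 and 153 in CD229+CD11c+. Foxa1, a pioneer factor of endoderm with the longest forkhead region (37.1 kb), rose by 0.52, from 202, 184 and 188 CPM to 268, 281 and 273 in CD229+CD11c- and 250, 249 and 227 in CD229+CD11c+. In both genes all CD229+ libraries lay above all basal ones. Foxc1 (0.70), Foxd3 (0.65) and Foxa2 (0.62) rose as well, and Foxq1, Foxf2 and Foxc1 sit side by side on chromosome 13 under separate regions. The forkhead region that did not pass lies 9.3 kb from the Foxq1 start and not over the gene (-0.08). Foxb1 (0.45), Foxd1 (0.44), Foxe1 (0.31), Foxc2 (0.62), Foxf1 (0.75) and Foxl2 (0.56), covered by regions that are more distant by centre or listed under another gene, rose as well.

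Among the bHLH genes, which drive neurons, muscle and connective tissue, 9 of 11 regions near a start rose in CD229+CD11c- cells and 7 of 11 in CD229+CD11c+ cells, with medians of 0.55 and 0.33. The 4.08 kb region on the Twist2 promoter was small, with 8.50, 10.9 and 10.9 CPM in basal libraries, 19.2, 15.5 and 13.9 in CD229-CD11c-, 24.5, 21.5 and 13.6 in CD229+CD11c- and 22.9, 21.4 and 15.7 in CD229+CD11c+. It rose by 0.98 ± 0.20 in each CD229+ subset, although replicate 3 of each lay well under the others. Atoh1, a factor of cerebellar granule cells and inner-ear hair cells, rose by 0.79 ± 0.11 and 0.71 ± 0.11. Its 10.7 kb region held 48.4, 44.5 and 50.7 CPM in basal libraries, 87.9, 85.4 and 75.5 in CD229+CD11c- and 84.8, 79.9 and 70.9 in CD229+CD11c+, both clear of the basal range and overlapping each other. Neurog1, under the longest region of all members, rose by 0.46, from 513, 489 and 546 CPM to 718, 716 and 692.5 in CD229+CD11c- and 658, 675 and 617 in CD229+CD11c+. The region of Myod1, the switch for muscle, rose by 0.81 and 0.62. Bhlhe22 (0.61), Twist1 (0.55) and Neurod1 (0.25) rose in CD229+CD11c- cells and passed the test in CD229+CD11c+ cells too. Atoh7 (0.40) passed in the first alone, as did Neurog2.

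Neurog2, a proneural factor of the cortex, passed in 1 CD229+ subset and not in the other. Its 27.3 kb region held 214, 167 and 172 CPM in basal libraries, 166, 158 and 211 in CD229-CD11c-, 259, 278 and 345 in CD229+CD11c- and 199.7, 212 and 238 in CD229+CD11c+. All CD229+CD11c- libraries lay above the basal range, and those of CD229+CD11c+ overlapped it. The log2 fold change against basal was 0.67 ± 0.12 (adjusted p = 0.000731) there and 0.23 ± 0.12 (adjusted p = 0.287) in CD229+CD11c+ cells, and the direct comparison of the subsets gave -0.44 ± 0.12 (adjusted p = 0.0914). Neurog3, the endocrine pancreas factor, did not pass in CD229+CD11c- cells despite a 69.9 kb region over the gene. It held 285, 279.6 and 301 CPM in basal libraries and 303, 312 and 248 in CD229+CD11c- libraries, which overlap, with a log2 fold change of -0.00. Neurod2 (0.51), Hand1 (0.54) and Hand2 (0.62) rose under regions listed as distant or as another gene.

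**Figure D2:**
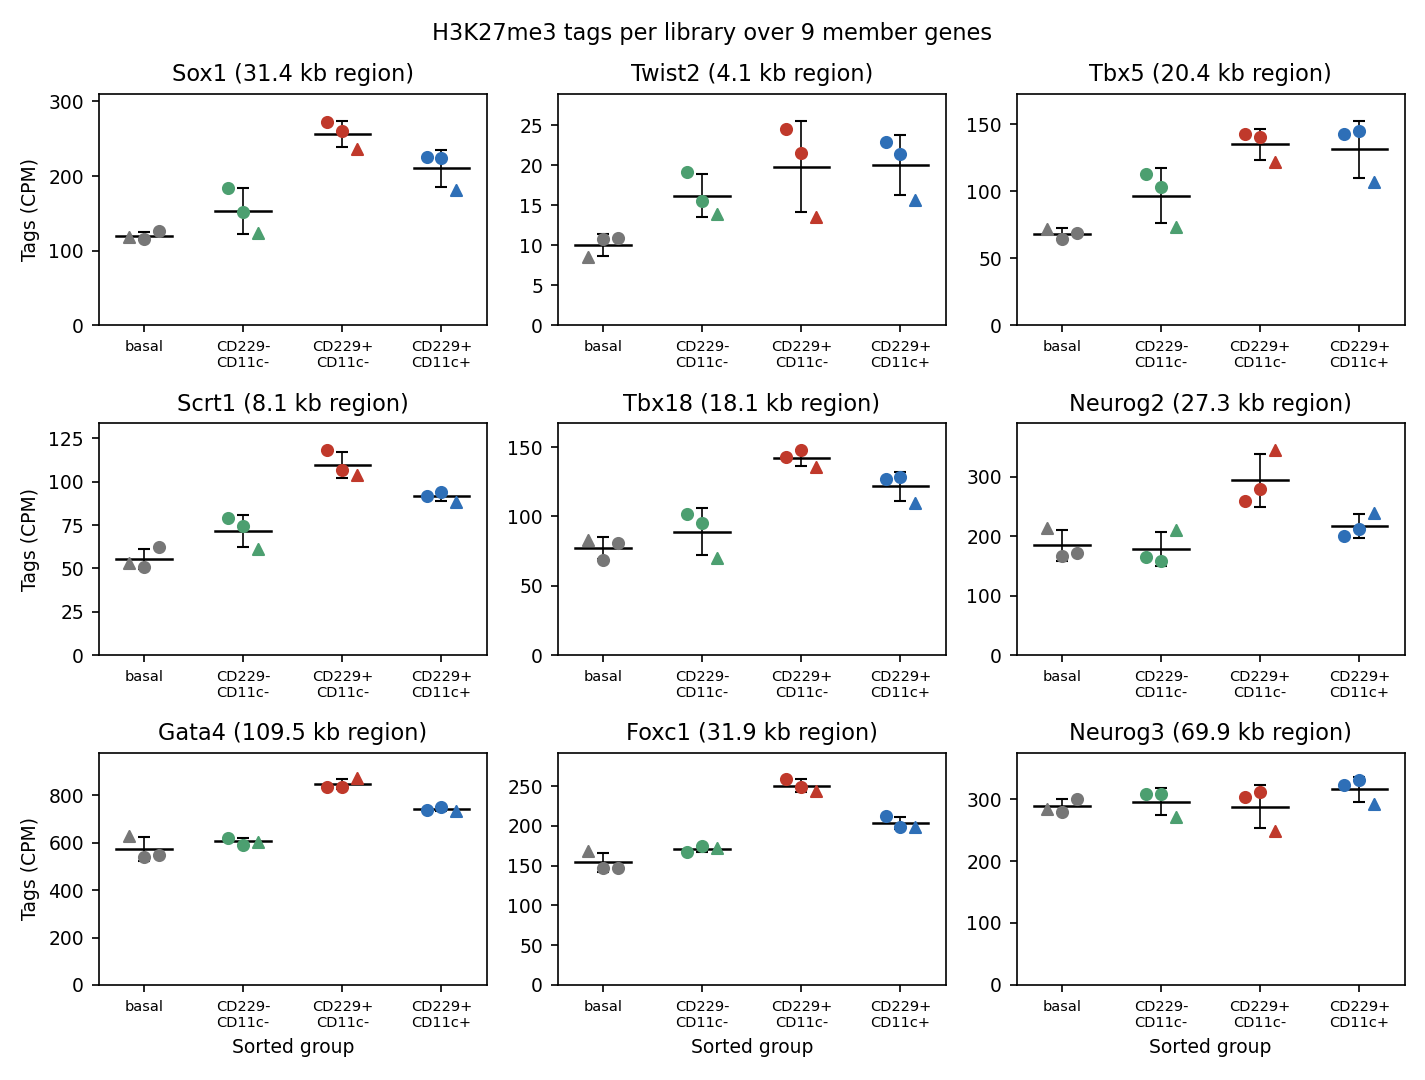
H3K27me3 tags (CPM, linear axis from 0) in each of the 12 libraries over 9 member genes; circles are libraries with PE150 in their title, triangles those without it, bars the mean and whiskers the SD of 3 libraries. The CD229+CD11c- libraries of Sox1, Scrt1, Tbx18, Gata4 and Foxc1 all stand above every basal library, whereas those of Neurog3 (248 to 312 CPM) overlap the basal range.

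The remaining families followed with few members each. Both Gata regions near a start rose in CD229+CD11c- cells: Gata4, the heart and endoderm factor, from 629.9, 542 and 549 CPM to 836, 837 and 873 CPM over 109.5 kb (0.56 ± 0.06, adjusted p = 3.3e-06), and Gata5 by 0.47. Gata6, under the region named for a neighbour, rose by 0.53. Of the Zic genes, which pattern the midline of the nervous system, the Zic2 region rose by 0.66 ± 0.10, from 327, 256 and 265 CPM to 399.8, 446 and 493, and reached no call in CD229+CD11c+ cells (0.24 ± 0.10). It also spans part of Zic5, whose own 1.25 kb region did not pass (0.61), and Zic4 with Zic1 rose by 0.53.

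Scrt1, a neuronal zinc-finger repressor, combined the highest basal enrichment with 1 of the largest rises: 53.3, 51.1 and 62.2 CPM in basal libraries, 79.0, 74.5 and 61.0 in CD229-CD11c-, 118, 107 and 104 in CD229+CD11c- and 92.0, 94.1 and 88.4 in CD229+CD11c+. The 4 groups kept apart except for the first pair. Its fold change was 0.98 ± 0.09 (adjusted p = 5.55e-07) in CD229+CD11c- cells and 0.72 ± 0.10 (adjusted p = 0.000134) in CD229+CD11c+ cells. Wt1, a factor of kidney and gonad, rose by 0.74 and 0.60, and Osr1 by 0.55 and 0.50. Osr2, with the longest region of this group (46.6 kb), rose by 0.45 in CD229+CD11c- cells, from 312, 258 and 262.5 CPM to 352, 365 and 418. Its CD229+CD11c+ libraries, at 311, 311 and 328 CPM, overlapped the basal range and did not pass. The 5.0 kb region nearest to Sall3, which lies beside the gene, passed in CD229+CD11c- cells too (0.62) and not in CD229+CD11c+ cells. Dmrt1, a factor of testis fate, rose by 0.85 ± 0.11 and 0.78 ± 0.11 in the region over its first intron (29.9, 30.8 and 36.1 CPM in basal libraries, 61.3, 60.9 and 52.6 in CD229+CD11c- libraries), and Dmrt3 by 0.33 and 0.23. The 8 Dmrt regions beyond 10 kb, some of them over the Dmrt1 body, went both ways. In CD229+CD11c- against basal cells they ran from -0.31 to 0.41, and 3 rose and 0 fell. Against CD229-CD11c- cells they ran from -0.54 to 0.34, and 2 rose and 0 fell.

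CD229+CD11c+ cells showed the same direction with a lower median. Against basal cells 28 of the 39 regions rose and 0 fell, with a median log2 fold change of 0.39, or 1.31-fold, where 4.33% of all regions and 10.0% of the other regions within 10 kb rose. All 3 libraries lay above the basal libraries in 31 of the 39, against 23.5% of the other regions within 10 kb. Among the other regions within 10 kb in the top 10% of basal enrichment 25.2% rose, and among the other regions that hold a whole protein-coding gene 19.9%. By gene body 44 of the 54 covered genes had a region that rose. The 10 without were Atoh7, Foxe1, Gata5, Neurog2, Neurog3, Osr2, Sox21, Tbr1, Zic2 and Zic5. Leaving out basal replicate 4 or CD229+CD11c+ replicate 1 left 19 of the 39 called, and the calls of Eomes, Sox2, Tbx15, Foxa1 and Neurog1 were lost without either library. Both comparisons share the basal libraries, so they are not independent of each other.

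CD229-CD11c- cells, the remaining cuprizone subset, differed little from basal cells. By edgeR 0 of the 39 regions passed, as did 0.0% of all regions and 0.0% of the other regions within 10 kb, and DESeq2 also called 0 of the 39. At an unadjusted p under 0.05 there were 12 of 39, and 1103 of all 26326. The median log2 fold change was 0.15, 38 of the 39 estimates were above 0, against 13750 of all 26326. In 8 of the 39, or 20.5%, all libraries lay above the basal ones, against 4.25% of the other regions within 10 kb. The 3 regions with the lowest p were those of Dmrt1 (0.55), Scrt1 (0.36) and Tbx5 (0.49), each with an adjusted p of 0.983. Libraries with and without PE150 in their title differed here. With the 2 tagged libraries of each group alone the median was 0.25 and 19 of the 39 rose, where 787 of all regions rose and 129 fell, whereas in the untagged pair, 1 library each, 19 of the 39 differences were above 0 and 20 below, with a median of -0.00.

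Within the cuprizone diet, CD229+CD11c- cells stood above CD229-CD11c- cells. In that comparison 28 of the 39 regions rose and 0 fell, with a median log2 fold change of 0.48, where 6.75% of all regions and 16.2% of the other regions within 10 kb rose. Sox1 (0.74 ± 0.11, adjusted p = 0.000202), Neurog2 (0.72 ± 0.12), Tbx18 (0.68 ± 0.11) and Foxq1 (0.63 ± 0.11) had the largest changes. By gene body 48 of the 54 covered genes had a region that rose, all but Myod1, Neurod1, Neurog3, Osr1, Tbx3 and Twist2. Among the other regions within 10 kb in the top 10% of basal enrichment 44.8% rose. Among the other regions that hold a whole protein-coding gene 37.2% rose. With the replicate number as a block 33 of the 39 rose, and Dmrt1 then passed as well (0.30, adjusted p = 0.00219, against 0.0998 without the block), while calls over all regions went from 2199 to 4595.

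CD229+CD11c+ cells lay between the other cuprizone subsets. Against CD229-CD11c- cells 4 of the 39 regions rose, those of Foxq1 (0.52 ± 0.11, adjusted p = 0.0301), Atoh1 (0.49 ± 0.11, adjusted p = 0.0437), Sox14 (0.42 ± 0.10, adjusted p = 0.0493) and Gata4 (0.29 ± 0.06, adjusted p = 0.0397), with a median of 0.25 over the 39. Of all regions 0.395% rose, and of the other regions within 10 kb 0.879%, or 2.49% of those in the top 10% of basal enrichment. These calls sit close to the threshold: leaving out CD229+CD11c+ replicate 1 or 2 left 0, leaving out CD229-CD11c- replicate 2 left 1, and leaving out CD229-CD11c- replicate 1 gave 11 (7 without CD229+CD11c+ replicate 3). With the replicate block 29 of the 39 rose, and calls over all regions went from 144 to 2025. Among the regions described in full here, those of Sox1 (0.46, adjusted p = 5.07e-12, against 0.074 without the block), Tbx18, Tbx5, Scrt1, Foxf2, Foxa1, Foxc1, Neurog1, Neurog2, Zic2, Osr2, Dmrt1, Tbx15, Sox2 and Eomes passed with the block and not without it.

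Between the CD229+ subsets, the mark was lower in CD229+CD11c+ cells at 34 of the 39 regions, with a median log2 fold change of -0.19, but 1 passed. Estimates were also below 0 at 4981 of the 7740 other regions within 10 kb, and at 970 of the 1284 of them in the top 10% of basal enrichment. Among the 1225 other regions that hold a whole protein-coding gene, 977 were below 0. With offsets that follow basal enrichment the median over the 39 was 0.00012 and 0 passed. The 1 region called without these offsets was Foxc1, at 259, 249 and 244 CPM in CD229+CD11c- libraries and 213, 199 and 199 CPM in CD229+CD11c+ libraries, with no overlap (-0.30 ± 0.07, adjusted p = 0.0399). Over all regions 0.771% fell, and 2.02% of the other regions within 10 kb, whose median was -0.07. Of those in the top 10% of basal enrichment 6.62% fell. In 19 of the 39 all CD229+CD11c+ libraries lay under all CD229+CD11c- libraries, against 21.2% of the other regions within 10 kb. The count depends on the test: the authors' deposited table, at its adjusted p, has 13 of the 39 lower, and the Foxc1 call was lost when any 1 library of either subset was left out. Farther than 10 kb by its centre, the region shared by Tbx4 and Tbx2 was lower as well (-0.29, adjusted p = 0.0337). The group means followed the order basal, CD229-CD11c-, CD229+CD11c+, CD229+CD11c- in 31 of the 39 regions, against 21.7% of the other regions within 10 kb. Between neighbours in that order 0, 4 and 1 of the 39 were called without the replicate block, and the block gave more calls in both comparisons in which it could be fitted.

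The distance rule splits some long regions from their genes. Just inside 10 kb, Sox14 (9.2 kb) and Osr2 (9.8 kb) had log2 fold changes of 0.82 and 0.45 in CD229+CD11c- cells. Just outside, Tbx3 (-10.9 kb), Tbx4 (-11.1 kb) and Zic4 (11.3 kb) had 0.52, 0.57 and 0.53. Whether a region lay over the gene was counted as well. Of the 59 regions over any part of a member gene, 51 rose in CD229+CD11c- cells against basal and 0 fell, with a median of 0.56. Estimates were below 0 in 6 of the 59. In 3 of them (5.08%) all CD229+CD11c- libraries lay under all basal ones, against 15.0% of all regions. Of the 81 member regions beside their gene, at a median distance of 69.1 kb, 7 rose (8.64%) and 1 fell, with a median of -0.03, where 9.52% of all regions rose and 3.47% fell. In CD229+CD11c+ cells the counts were 43 of 59 with a median of 0.34, and 4 of 81 (4.94%) with a median of 0.00, where 4.33% of all regions rose. The regions beside the genes thus rose at about the share of all regions. The regions beside the gene were also shorter, at a median of 5.74 kb against 31.9 kb, and less enriched in basal cells, at a log2 of 1.41 against 2.21. Length and enrichment move with this split, and their part in it was not tested.

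**Figure D3:**
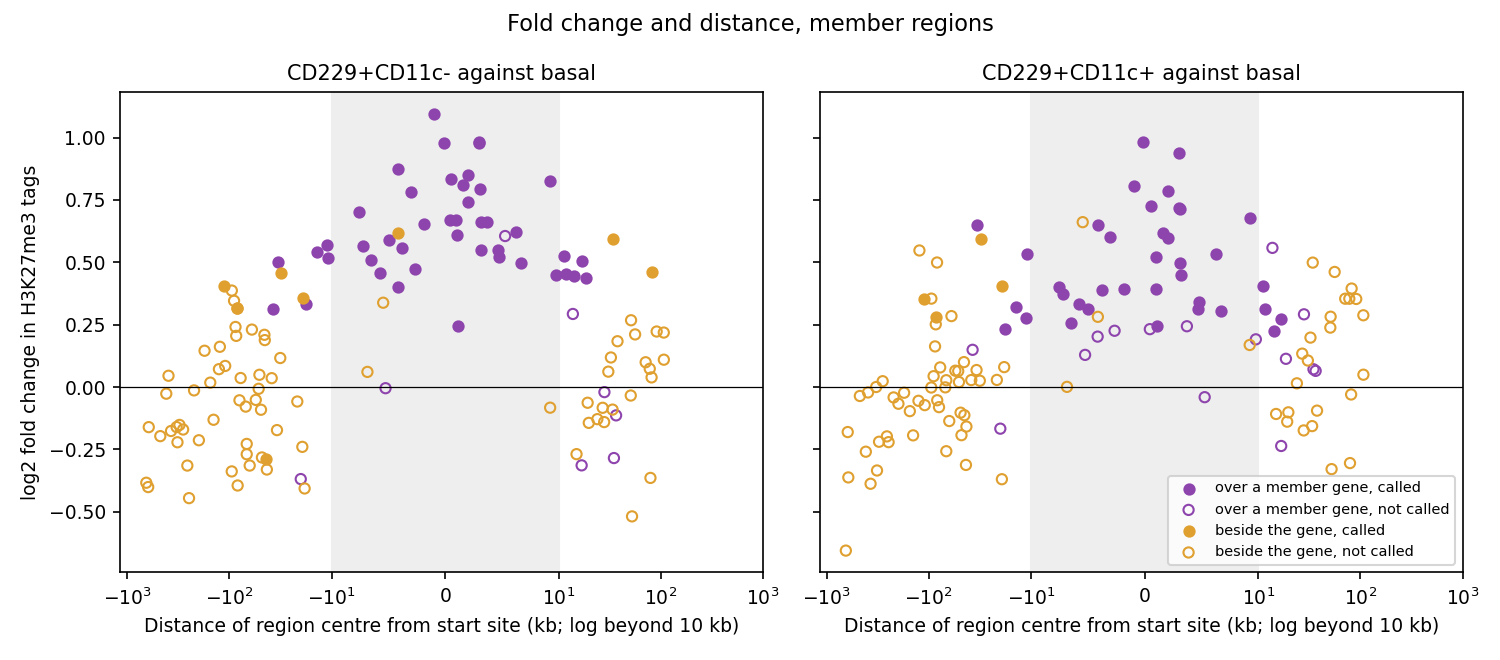
Log2 fold change of the 133 member regions in each CD229+ subset against basal microglia, by distance of the region's centre from the start site (linear within the grey 10 kb band, logarithmic outside it). Purple regions overlap a member gene and orange ones lie beside it; filled points passed an adjusted p under 0.05. Filled points gather around the start sites, and nearly all the orange points away from them are open.

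The regions beside genes that did rise were near Dmrt1 (-19.2 and -111.6 kb), Gata4 (-84.8 kb), Sox1 (34.2 and 82.1 kb), Twist2 (-31.0 kb) and Sall3, all lying next to a gene whose own region rose, except Sall3. Sall3 had 20 regions and Twist2 14, most of them far off, so that a count over regions weights these 2 genes heavily. The fall was in an 18.8 kb region 43.4 kb from Neurod1, from 73.0, 71.8 and 62.2 CPM in basal libraries to 54.0, 55.7 and 59.9 in CD229+CD11c- libraries (-0.29 ± 0.10, adjusted p = 0.0499), a call lost without basal replicate 3 or 4 or CD229+CD11c- replicate 1 or 2. A 7.62 kb region inside the first intron of Tbx15, 34.8 kb from its start, fell in CD229+CD11c- against CD229-CD11c- cells (-0.42 ± 0.11, adjusted p = 0.023), where 1.6% of all regions fell, while the long region over the Tbx15 start rose. That call was lost without CD229+CD11c- replicate 2 or 3 or CD229-CD11c- replicate 1 or 3.

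Sall1 is the member with a known role in microglia, and no region covered it. The 3 regions listed under its name lie -614, -622 and -649 kb from its start. The first held 10.5, 7.08 and 8.37 CPM in basal libraries and 7.81, 7.71 and 7.63 in CD229+CD11c- libraries, and the farthest 9.80, 8.56 and 8.63 against 5.88, 6.08 and 8.75. None of the 3 passed in any comparison, with log2 fold changes of -0.16, -0.40 and -0.38 in CD229+CD11c- cells. Tal1 and Lyl1 had no region at all, so their levels in the 12 libraries are not analysed here.

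The share of a library's tags that fell on the 59 regions over member genes was 1.09% ± 0.05 (SD, n = 3) in the basal group. It was 1.15% ± 0.03 for CD229-CD11c- libraries, 1.43% ± 0.01 for CD229+CD11c- libraries and 1.31% ± 0.04 for CD229+CD11c+ libraries. All CD229+ libraries, at 1.27% and above, exceeded all others, which reached 1.19%. The 81 regions beside the genes took between 0.231% and 0.246% in every library. For the 39 regions within 10 kb the share was 0.553% ± 0.025, 0.592% ± 0.015, 0.754% ± 0.005 and 0.688% ± 0.020 in the same order of groups.

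**Figure D4:**
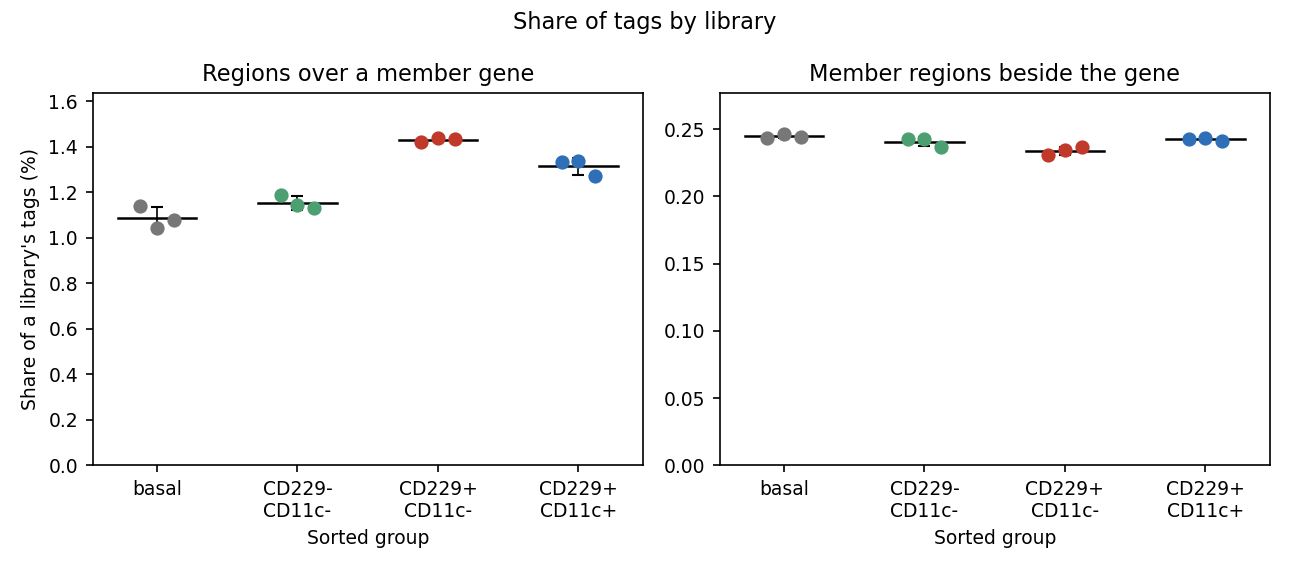
Share of each library's H3K27me3 tags (percent of tags in all regions, axes from 0) on the 59 regions over a member gene and on the 81 member regions beside the gene; points are libraries, bars the mean and whiskers the SD of 3. Over the genes the CD229+CD11c- libraries lie at 1.42% to 1.44% and the basal libraries at 1.04% to 1.14%, while beside the genes all 12 lie between 0.231% and 0.246%.

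Other genes of the same families were counted by gene body as well. Only the region that covers most of each gene was taken, whereas every region over a member gene was counted. Of 121 further family genes with a RefSeq record, 84 lay under a region, 83 of them apart from regions already counted for a member. In CD229+CD11c- cells 49 of these 83 rose and 5 fell, with a median log2 fold change of 0.34, where 45.6% of the other regions that hold a whole protein-coding gene rose. In CD229+CD11c+ cells 22 rose and 4 fell, with a median of 0.18, where 19.9% of those regions rose. The 6 with the smallest p in CD229+CD11c- cells all rose: Foxs1 (0.67), the Notch target Hes5 (0.70), Dmrta2 (0.63), the oligodendrocyte lineage factor Olig2 (0.59), Foxd4 (0.69) and the blood progenitor factor Gata2 (0.67). The falls were at Ascl4 (-0.86), the activity-induced factors Egr1 (-0.68) and Egr2 (-0.57), Bhlhe40 (-0.42), a regulator of macrophage activation, and Foxn1 (-0.27). No region over a member gene passed the threshold as a fall in either CD229+ subset against basal cells. Neither that difference nor the gap in counts was tested.

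The scale and the height of the mark bear on these counts. Scaling by total tags in place of TMM shifted the median of all regions by -0.14 on the log2 scale in CD229+CD11c- against basal cells, and turned the calls over all regions from 2506 higher and 913 lower to 1578 and 3789, while 32 of the 39 member regions still rose. In CD229+CD11c+ cells the same change turned 1139 and 386 into 687 and 796, with 25 of the 39 higher. In CD229+CD11c- against CD229-CD11c- cells it turned 1777 and 422 into 1059 and 1697, with 26 of the 39 higher. For CD229+CD11c+ against CD229-CD11c- cells 104 and 40 became 60 and 50. An offset that follows basal enrichment and tag density over all regions, which removes change shared by strongly marked regions, left 18 of 39 higher in CD229+CD11c- and 17 of 39 in CD229+CD11c+ cells against basal, where it left 9.37% and 5.45% of the other regions within 10 kb. Against CD229-CD11c- cells it left 6 of 39 in CD229+CD11c- cells, Sox1 and Tbx18 among them, and 0 of 39 in CD229+CD11c+ cells. Of the regions given in full, Sox1, Tbx5, Tbx18, Twist2, Dmrt1, Foxq1, Foxc1, Foxf2, Sox14 and Atoh1 still passed in both, whereas Scrt1, Sox2, Tbx15, Foxa1 and Neurog1 passed in neither. Gata4, Neurog2, Zic2 and Osr2 lost the call in CD229+CD11c- cells, and Eomes lost it in CD229+CD11c+ cells.

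The direction held on both sides of the title tag in 5 of the 6 comparisons. In CD229+CD11c- against basal cells the median difference over the 39 regions was 0.67 in the tagged libraries and 0.52 in the untagged pair, and in CD229+CD11c+ against basal cells it was 0.45 and 0.27. Against CD229-CD11c- cells it was 0.42 and 0.53 in CD229+CD11c- cells and 0.27 in both for CD229+CD11c+ cells. Between the CD229+ subsets it was -0.18 and -0.21. The untagged values rest on 1 library a group and have no test.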

How the data were processed

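H3K27me3 ChIP-seq libraries of sorted microglia were analysed from the deposited tables. The authors' raw counts, 1 column per library with no normalization, cover 26326 regions and 12 libraries. The authors' basal table gives log2 values per basal library, a log2 fold over input, p-values and the region size in bp, and per the file headers its regions were called with HOMER in mm10 on basal replicates 1 and 2. The authors' table of comparisons holds log2 fold changes and adjusted p-values, of which only counts past 0.05 were used; its 12 per-library signal columns were not used here. The submitters' processing notes name fastp 0.20.0, DESeq2, Bowtie2 2.3.4.1, HOMER and STAR 2.7.0f without their roles.

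Counts were fitted with edgeR 4.0.16 in R 4.3.3 (filterByExpr, which removed 0 regions, TMM, robust quasi-likelihood, 4 groups in 1 model) and tested in 6 comparisons, with Benjamini-Hochberg adjustment over all regions of each. The procedure was tested on simulated counts. A region was called at an adjusted p under 0.05. SE is derived from the test, as the absolute log2 fold change divided by the square root of the quasi-likelihood F statistic. "Other regions within 10 kb" leave out member regions and regions over a member gene. Gene bodies are those of the RefSeq table of GRCm38.p6. DESeq2 1.42.0 and other scalings served as alternatives. Replicates are pools of mice, and the labels do not say whether replicates or groups share animals, so p-values measure the spread between these libraries.

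Deviations of same-numbered libraries from their group means correlated at 0.28, 0.13 and 0.46 for CD229-CD11c- with CD229+CD11c-. For CD229-CD11c- with CD229+CD11c+ the values were 0.24, 0.13 and 0.42. The main fit used no pairing. For the replicate block, an alternative fit, these pairs were treated as paired from the data, not from a label. Between the CD229+ subsets the values were 0.20, 0.08 and 0.33, which was not taken as pairing. Replicates 1 and 2, which carry PE150 in their title, also correlated across numbers: 0.14 and 0.25 for the first pair of subsets, 0.13 and 0.18 for the second. Replicate 3, without the tag, correlated negatively with replicates 1 and 2 (-0.37 to -0.14). Deviations from a group mean cancel out within the group. Positive values with replicates 1 and 2 therefore force a negative value with replicate 3, which is not a separate observation. These correlations cannot tell replicate number from title tag, and the cause of the block's added calls was not tested.

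Values by library are given for the 4 called regions within 10 kb with the largest change and no overlap in each comparison (where none was called, the 3 with the lowest p), the most enriched and the longest of each family, Sall1, and members called against the common direction; of the further family genes, the 6 with the smallest p are named. Neurog3, Tbx4 and the named genes outside the member list were chosen after their values were seen. The members, gene lists and rules were chosen with earlier results of these data known.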

Additional observations from a re-analysis of the deposited data

Results flagged for a closer look

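The change against basal cells differed between the CD229+ subsets in 2 member regions, by the direct edgeR comparison of CD229+CD11c+ with CD229+CD11c- cells. The Foxc1 region was lower in CD229+CD11c+ cells by a log2 fold change of -0.30 (adjusted p = 0.0399, lower in 3 of 3 libraries than in any of the other subset). The 104.5 kb region over Tbx4 and Tbx2 was lower by -0.294 (adjusted p = 0.0337). It held 742, 749 and 776 CPM in CD229+CD11c- libraries and 615, 616 and 619 in CD229+CD11c+ libraries, with no overlap, and 556, 471 and 501 in basal libraries. Of all regions 203 were lower and 14 higher in this comparison. Within 10 kb 1 of the 39 member regions was lower (2.56%), against 2.02% of the other regions and 6.62% of those in the top 10% of basal enrichment. With loess offsets on basal enrichment neither call held, at -0.063 for Foxc1 (edgeR adjusted p = 0.876) and -0.054 for the Tbx4 region (edgeR adjusted p = 0.885). The Foxc1 call was also lost when any 1 library of either subset was left out. Sets of 3 libraries were too small to look for single outlying libraries.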

How the results depend on the processing

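In the lists of values by comparison that follow, the order is CD229-CD11c-, CD229+CD11c- and CD229+CD11c+ against basal cells, then CD229+CD11c- and CD229+CD11c+ against CD229-CD11c- cells, then CD229+CD11c+ against CD229+CD11c- cells. By edgeR, 0, 34, 28, 28, 4 and 1 of the 39 member regions within 10 kb were called, with median log2 fold changes of 0.15, 0.62, 0.39, 0.48, 0.25 and -0.19, and 0, 3419, 1525, 2199, 144 and 217 of all regions. Leaving out 1 library at a time gave 0 to 4, 32 to 34, 19 to 27, 26 to 31, 0 to 11 and 0 to 0 member calls, medians of 0.09 to 0.21, 0.58 to 0.68, 0.36 to 0.44, 0.43 to 0.50, 0.24 to 0.27 and -0.22 to -0.15, and 0 to 30, 2084 to 3294, 442 to 1605, 1532 to 2576, 44 to 271 and 9 to 157 calls over all regions. The share of tags ranged from 0.539% to 0.563% (basal), 0.584% to 0.599% (CD229-CD11c- cells), 0.752% to 0.757% (CD229+CD11c- cells) and 0.682% to 0.700% (CD229+CD11c+ cells).

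The cause of the changes below was not tested. With the PE150 tag as a covariate, member calls became 7, 27 and 16 for CD229-CD11c- against basal cells and in the last pair of comparisons, and calls over all regions 33, 5828, 4538, 4370, 1638 and 1920. With the PE150-tagged libraries alone, an alternative chosen after seeing the data, member calls became 19, 26 and 13 in the same comparisons, medians 0.25, 0.67, 0.45 and 0.42 in the first 4 and -0.18 in the last, and calls over all regions 916, 5532, 4274, 3309, 933 and 1397. Loess offsets on basal enrichment left 18, 17, 6, 0 and 0 member calls in the 5 comparisons after the first, with medians of 0.27, 0.29, 0.15, 0.15 and 0.00012, the last with its sign reversed. They left 1890, 760 and 45 calls over all regions for CD229+CD11c- against basal cells, against CD229-CD11c- cells, and between the CD229+ subsets.

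Scaling to the total count gave medians of 0.48, 0.32 and 0.37 in the 3 comparisons after the first and -0.13 in the last, 1 and 0 member calls in the last pair, and 5367 and 28 calls over all regions for CD229+CD11c- against basal cells and between the CD229+ subsets. DESeq2's Wald test called 14 and 8 member regions and 322 and 668 of all regions in the last pair of comparisons. DESeq2's size factors called 2 member regions in the last, and a mean count of at least 50 called 0. Fitting only the 2 groups compared gave 2977 calls over all regions for CD229+CD11c+ against basal cells, and 0 and 9 member calls with 50 and 631 over all regions in the last pair.

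The replicate block moved calls over all regions to 4595 in CD229+CD11c- against CD229-CD11c- cells. In CD229+CD11c+ against CD229-CD11c- cells it gave 29 member calls and 2025 over all regions. Between the CD229+ subsets, where the numbers were not taken as pairing, it gave 22 member calls (21 lower, 1 higher) and 2199 over all regions. Basal libraries share 1 replicate number with the subsets, so no block was fitted against them.

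Counting members at any distance gave 52 calls in the second comparison and 2 in the last, and medians of 0.047, 0.18, 0.16, 0.16, 0.14 and -0.054. Within 5 kb there were 2 and 0 calls in the last pair and a median of 0.47 in CD229+CD11c+ against basal cells. The share of tags in basal, CD229-CD11c-, CD229+CD11c- and CD229+CD11c+ libraries was 0.290%, 0.316%, 0.419% and 0.375% within 5 kb, and 1.16%, 1.21%, 1.44% and 1.35% at any distance.

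Fold changes of the 25 regions named by rule were followed in both CD229+ subsets against basal cells, and in the other comparisons only where they were called or ranked there. Over all alternatives 966 of these kept their sign and their side of the threshold, 98 lost the call, 32 gained it and 6 changed sign. Those 6 were a Sall1 region in CD229+CD11c- against basal cells with the tagged libraries alone (0.0051), a distant Tbx15 region in CD229+CD11c+ against basal cells under total count scaling (-0.0010), and, under loess offsets, Zic2 in CD229+CD11c+ against basal cells (-0.027), Osr2 in CD229+CD11c- against basal (-0.013) and against CD229-CD11c- cells (-0.031), and Sox2 in the latter comparison (-0.047). Over all 25 regions, called or not, loess offsets changed the sign of 1, 1, 1, 2, 1 and 12 in the order of comparisons given first; of those in the last, 0 had been called. Library totals of 7740002 to 11362168 tags limit what can be called in regions with few tags.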
